A study of Homo sapiens with 6 samples.

Results

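The nuclear-encoded genes of oxidative phosphorylation were described in HBEC3kt cells that carried either wild-type U2AF1 or the U2AF1 S34F mutation. Members were the Ensembl genes of the deposited isoform table whose symbol fitted a subunit name of complexes I to V (NDUFA, B, C, S and V; SDHA to SDHD; UQCR and CYC1; COX4 to COX8 with a letter A to C; ATP5) and that held at least 15 reads over all libraries. The rule gave 79 genes of 11034 Ensembl genes in the table, of which 8901 held at least 15 reads. Complex I supplied 34 members, complex II 3, complex III 9, complex IV 11 and complex V 18. The other 4 were the pseudogenes ATP5F1EP2 and COX6A1P2, the readthrough ATP5MF-PTCD1 and ATP5S, which is named for the synthase but is no subunit counted here. A further 11 genes fitted the names but held fewer than 15 reads, and their levels were not tested. NDUFA4 was counted with complex IV, where its protein is now placed.

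Oxidative phosphorylation takes place in the inner mitochondrial membrane. Complexes I and II pass electrons from NADH and succinate to ubiquinone, complex III passes them to cytochrome c, and complex IV passes them to oxygen. Complexes I, III and IV pump protons, and complex V, the ATP synthase, uses the proton gradient to make ATP. A small set of core subunits is encoded by mitochondrial DNA, and the members described here are made from nuclear genes, many of them with short, abundant mRNAs.

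HBEC3kt is a human bronchial epithelial line, immortalised without a viral oncogene and kept as an epithelial cell culture. U2AF1 is the splicing factor subunit that contacts the AG at the 3′ end of introns, and S34F is a substitution in its first zinc finger that is known to change which bases next to that AG are favoured. The study compared 3 wild-type libraries (WT1, WT2 and WT3) with 3 U2AF1 S34F libraries (S34F1, S34F2 and S34F3), each a Smart-Seq2 cDNA of polyA RNA read on a nanopore instrument. In each genotype, replicate 1 came from isolate 1 and replicates 2 and 3 from isolate 2. Replicates 1 and 2 carry the label B1 and replicate 3 the label B2, and the sources used here do not say what B1 and B2 stand for or how the mutation was introduced. Because isolate 2 was read in 2 libraries of each genotype, p-values measure the spread between these libraries, part of which may be technical.

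The libraries held 451540 to 1720292 assigned reads, and each S34F library held fewer than any wild-type library. U2AF1 itself stood at 500, 569 and 303 CPM (library-size-scaled read counts, TMM) in WT1 to WT3 and at 536, 418 and 242 CPM in S34F1 to S34F3, which overlap; read counts per gene do not show the substitution. All 10 basal epithelial markers of the list were measured, and 9 were tested. The summed CPM of the 10, here scaled by assigned reads alone and without TMM, ran from 8721 to 15290 over the libraries. LAMB3 was called lower in S34F (edgeR adjusted p = 0.029; 0.053 with pairing by replicate number, and 0.111 to 0.195 without WT1, WT2, WT3 or S34F3). The markers' median log2 change was 0.27, and at an unadjusted p below 0.05 stood 3 higher and 1 lower. KRT5, a basal keratin, stood at 418, 289 and 531 CPM in wild type and 1427, 739 and 918 CPM in S34F (log2 change 1.34 ± 0.35 SE, adjusted p = 0.051 by edgeR). The secretory, ciliated, fibroblast and endothelial markers were not in the table, and 1 of 4 blood markers was present with 15 reads in all. Libraries differed in the length of what they held: the mean length of the isoforms behind the reads was 1212, 1147 and 1443 bases in WT1 to WT3 and 1102, 1266 and 1381 bases in S34F1 to S34F3. The share of reads on isoforms under 800 bases was 31.0%, 35.4% and 20.3% in wild type and 37.7%, 26.2% and 22.5% in S34F.

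The members together took 4.45%, 5.43% and 2.99% of assigned reads in WT1 to WT3 and 5.29%, 3.55% and 3.25% in S34F1 to S34F3. The group means were 4.29% ± 1.23 (SD, n = 3) and 4.03% ± 1.10 (SD, n = 3), and the ranges overlapped almost wholly (exact two-sided permutation test, p = 0.90; 3 against 3 libraries cannot go below 0.10). Among the complexes, complex I took 1.62% ± 0.54 of reads in wild type and 1.54% ± 0.60 in S34F, and complex V took 1.05% ± 0.29 and 0.946% ± 0.16 (SD, n = 3 each). Complex II, with 3 members, took 0.0494% ± 0.013 and 0.0458% ± 0.018. Its median mean length was 1315 bases, beside 737.8 over all tested members and 1589 over all features tested. Exact permutation p-values for the 5 complexes lay between 0.7 and 1.0.

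Gene-level tests found 1 of the 78 members that passed the filter on low counts to differ between the genotypes. Over all 7033 features tested, 3.24% were called (edgeR with the B1/B2 term, Benjamini-Hochberg adjusted p up to 0.05), and 2.13% were called lower in S34F. The share among members, 1 of 78, lay below that background. At an unadjusted p below 0.05 stood 5 members, against 17% of all features. Of the 78, 50 had a positive and 28 a negative log2 fold change (S34F over wild type). Their median was 0.13, beside 0.02 over all features, and their standard errors ran from 0.26 to 0.45. The ranges of the 6 libraries did not overlap between genotypes for 4 members (13.1% of all features), namely ATP5ME and NDUFB1, lower in S34F, and UQCRC1 and ATP5PB, higher. The readthrough ATP5MF-PTCD1, with 56 reads, did not pass the filter.

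**Figure D1:**
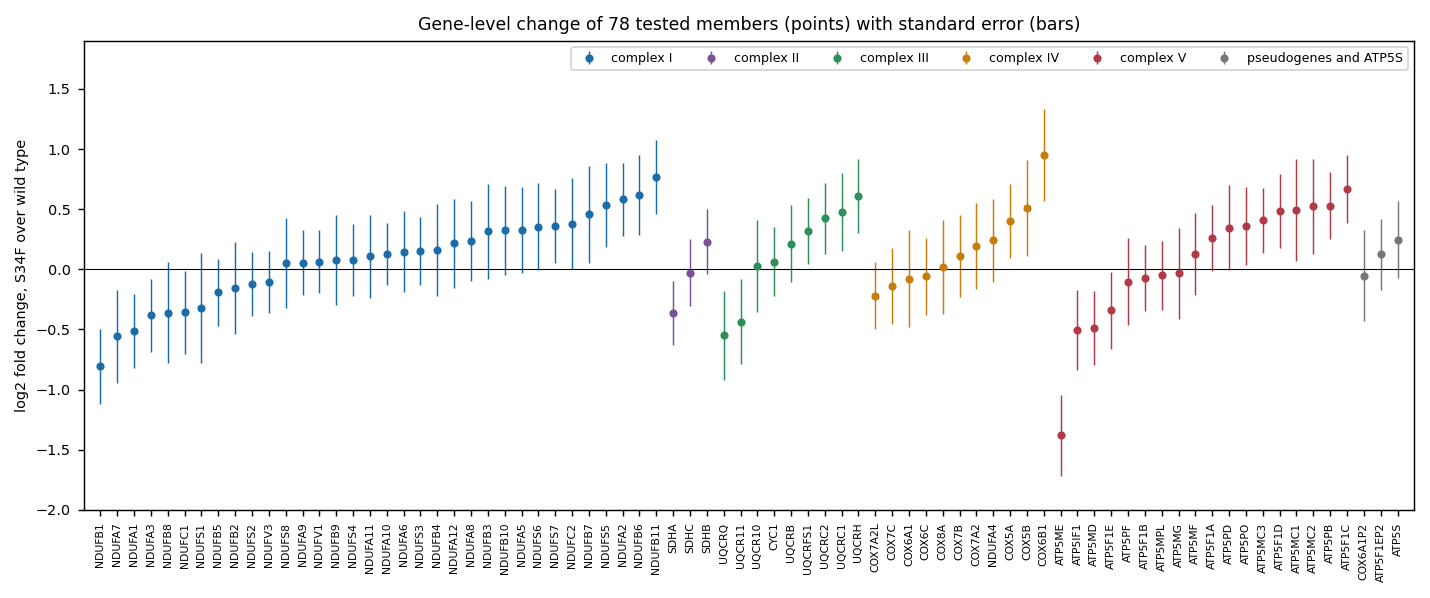
Log2 fold change (S34F over wild type, vertical axis) of each of the 78 tested members, ordered within complexes I to V, with its standard error as a bar. ATP5ME stands apart at -1.38, while the other members lie between -0.81 and 0.95.

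ATP5ME, the e subunit of the ATP synthase membrane part, which takes part in holding synthase dimers together, was called lower in S34F by the main fit. Its level was 997, 1179 and 734 CPM in WT1 to WT3 and 264, 401 and 445 CPM in S34F1 to S34F3. Each S34F library lay below each wild-type library. The means were 970 ± 224 CPM and 370 ± 94.2 CPM (SD, n = 3), a log2 fold change of -1.38 ± 0.34 (SE; edgeR adjusted p = 0.036). In the fit that pairs libraries by replicate number the log2 fold change was -1.39 and the adjusted p 0.051, so that the call was not made. Leaving out WT1, WT2, WT3 or S34F3 in turn left adjusted p-values of 0.126, 0.205, 0.124 and 0.102, with fold changes of the same sign. The call was also lost with at least 10 reads in every library, without the B1/B2 term and on B1 libraries only (edgeR adjusted p = 0.058, 0.329 and 0.108). Summing the isolate 2 libraries ended it as well (log2 fold change -1.48), in a fit that called 0 of all features. The fit without the B1/B2 term called 2 of all features. RLE scaling, DESeq2, limma-voom, equal depth and no filter kept the call, as did leaving out S34F1 or S34F2.

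The gene (ENSG00000169020.5) lies on chromosome 4 at 666078 to 668119 of hg19, on the minus strand. Of its 3 isoforms, 2 annotated forms held 54.7% and 44.6% of the reads. These have the same 4 exons and differ in their 3′ end, at 666078 and at 666226, with lengths of 504 and 356 bases. The longer form stood at 567, 689 and 518 CPM in wild type and 150, 218 and 292 CPM in S34F (log2 fold change -1.45 ± 0.36 SE, edgeR adjusted p = 0.019). The shorter form stood at 473, 535 and 429 CPM and at 105, 209 and 240 CPM (log2 change -1.40 ± 0.37 SE, adjusted p = 0.026 by edgeR). Both 3′ ends were lower in every S34F library, and the block by replicate number kept both calls (adjusted p = 0.024 and 0.027). Leaving out any library but S34F2 ended both calls, with adjusted p-values from 0.0551 to 0.144 for the longer and 0.0856 to 0.163 for the shorter form. Both calls were also lost without the B1/B2 term (0.279 and 0.351) and on B1 libraries only (0.103 and 0.138). The fit without that term called 3 of all isoforms tested. MYL5, on the opposite strand, overlaps the gene by 509 bases with 74 reads in all, against 5118 for ATP5ME.

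**Figure D2:**
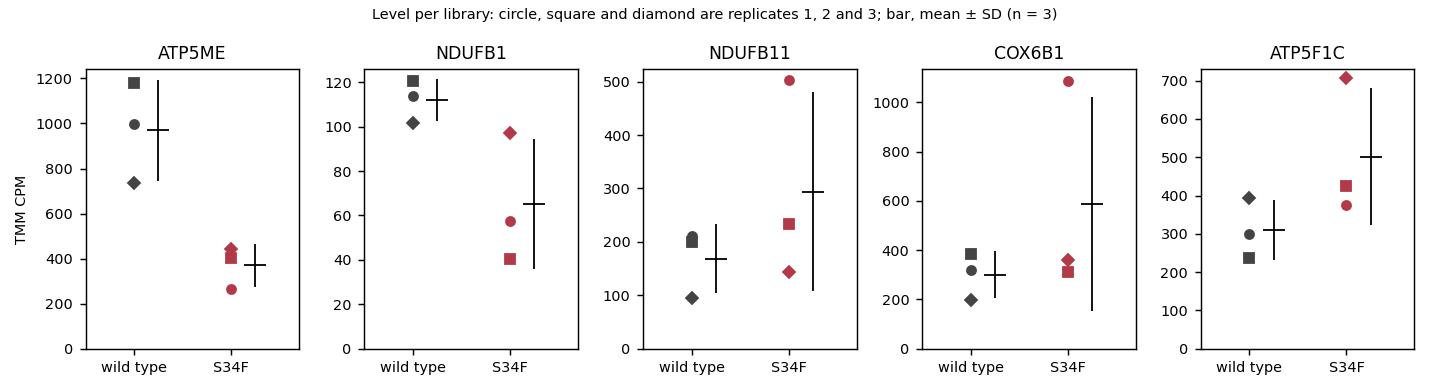
TMM CPM per library (vertical axis, linear from 0) of ATP5ME and the 4 members next in gene-level p. Circles, squares and diamonds are replicates 1, 2 and 3, and bars are mean ± SD (n = 3). ATP5ME separates the genotypes, NDUFB1 separates them narrowly, and in NDUFB11 and COX6B1 the high S34F value is replicate 1.

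In complex I no member was called; 1 of 34 had an unadjusted p below 0.05 in each direction. NDUFB1, an accessory subunit of the membrane arm, stood at 114, 120 and 102 CPM in wild type and 57.5, 40.4 and 97.3 CPM in S34F. Its ranges were apart by a small gap, and its log2 fold change of -0.81 ± 0.31 (SE) did not pass (edgeR adjusted p = 0.204). NDUFB11, another membrane arm subunit, stood at 211, 200 and 95.2 CPM and at 503, 234 and 144 CPM, with overlapping ranges (log2 fold change 0.77 ± 0.31 SE, edgeR adjusted p = 0.222). Without S34F1, its highest library, the log2 change was 0.36 (adjusted p = 0.603), and without S34F2 the NDUFB11 call was made (1.00, adjusted p = 0.011). The most-read member, NDUFB8, had 17097 reads and a log2 fold change of -0.36 ± 0.42 (SE).

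Of the core subunits of the electron-input arm of complex I, which hold the flavin and iron-sulfur centres, none of those tested was called. Not every one of them was among the members tested. NDUFV1, which binds NADH, had a log2 fold change of 0.06 ± 0.26 (SE), and NDUFV3, a small subunit beside it, -0.10 ± 0.26. NDUFS1, the longest of these mRNAs at a mean 2576 bases, was thinly read, with 11, 12 and 41 reads in wild type and 2, 4 and 23 in S34F. At that depth its log2 fold change of -0.32 had a standard error of 0.45. NDUFS1 was most read in the B2 library of each genotype.

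In complex II, the succinate dehydrogenase that also serves the citrate cycle, neither direction was called among 3 members. The flavoprotein SDHA stood at 258, 208 and 286 CPM in wild type and 158, 187 and 246 CPM in S34F (log2 fold change -0.36 ± 0.27 SE). The iron-sulfur subunit SDHB stood at 129, 150 and 232 CPM and at 173, 130 and 312 CPM (log2 fold change 0.23 ± 0.27 SE). Ranges overlapped for both. PDCD6 overlaps SDHA on the same strand by 2675 bases, and the sources used here do not say how reads between such neighbours were divided.

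In complex III, 7 of 9 members had a positive log2 fold change and none was called, nor did any reach an unadjusted p of 0.05. UQCRC1, one of the core proteins, stood at 1814, 1579 and 1549 CPM in wild type and 2824, 2162 and 1929 CPM in S34F. All S34F values were above all wild-type values, yet the log2 fold change of 0.48 ± 0.32 (SE) did not pass (edgeR adjusted p = 0.491). The most-read member UQCRQ stood at 3374, 3956 and 1373 CPM and at 2958, 1408 and 1237 CPM (log2 fold change -0.55 ± 0.37 SE). UQCRH, the hinge protein that contacts cytochrome c1, had 0.61 ± 0.31, the catalytic Rieske protein UQCRFS1 0.32 ± 0.28, and cytochrome c1 itself, CYC1, 0.06 ± 0.29 (log2 fold change ± SE).

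In complex IV none of 11 members was called, and COX6B1 alone had an unadjusted p below 0.05. COX6B1, which faces cytochrome c on the outer side of the enzyme, stood at 320, 385 and 198 CPM in wild type and 1087, 312 and 360 CPM in S34F. One S34F library was far above the rest and the other S34F values lay within the wild-type range, so the log2 fold change of 0.95 ± 0.38 (SE) did not pass (edgeR adjusted p = 0.222). Without S34F1 the log2 change of COX6B1 was 0.28 (adjusted p = 0.723), and without S34F2 it was called (1.30, adjusted p = 0.000661). COX5B had the same shape, with 1100, 1428 and 645 CPM in wild type and 2985, 884 and 794 CPM in S34F (log2 fold change 0.51 ± 0.40 SE). COX5A had a log2 fold change of 0.40 ± 0.31 (SE), COX6A1, the most-read member of the complex, -0.08 ± 0.40, COX7A2 0.20 ± 0.36 and NDUFA4 0.24 ± 0.34.

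In complex V, 10 of 18 members had a positive and 8 a negative log2 fold change, and ATP5ME was the one call. The catalytic head showed no call: ATP5F1A had a log2 fold change of 0.26 ± 0.27 (SE) and ATP5F1B -0.07 ± 0.27. ATP5F1C, the gamma subunit that forms the rotating stalk, stood at 300, 237 and 393 CPM in wild type and 375, 425 and 706 CPM in S34F. Its ranges overlapped in one wild-type library, and its log2 fold change of 0.67 ± 0.28 (SE) did not pass (edgeR adjusted p = 0.241). ATP5PB, of the peripheral stalk, stood at 173, 154 and 176 CPM and at 187, 295 and 246 CPM, and its log2 fold change of 0.53 ± 0.28 (SE) did not pass (edgeR adjusted p = 0.349). The most-read member ATP5PF, also of the peripheral stalk, had -0.10 ± 0.36.

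Levels of the members differed between libraries of one genotype. S34F1 was the highest of the 6 libraries for 43 of 78 members (55.1%), against 22.0% of all features, and the B2 libraries were low for most members. Libraries were also unlike in transcript length, as given above, and the part of this in the members' levels was not tested. For the 47 members with a mean length under 800 bases, the median level over the wild-type mean was 1.02, 1.35 and 0.613 in WT1 to WT3 and 1.72, 0.817 and 0.717 in S34F1 to S34F3. For the 432 other Ensembl genes under 800 bases the same medians were 1.03, 1.32, 0.605, 1.49, 0.822 and 0.665, in the same order of libraries. For the 31 longer members they were 1.03, 1.02, 0.893, 1.15, 0.971 and 0.888. Short members and other short genes thus followed the same order of libraries.

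**Figure D3:**
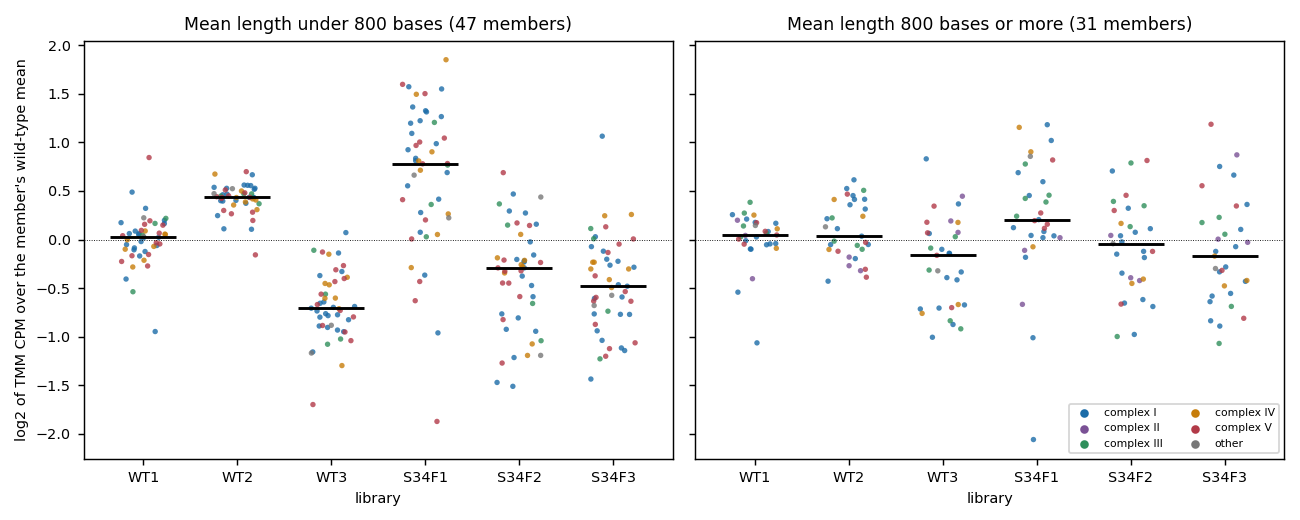
Log2 of TMM CPM over each member's wild-type mean (vertical axis) in the 6 libraries, for members under 800 bases (left) and longer ones (right). Points are members, coloured by complex, and lines are medians: among short members S34F1 and WT2 sit high and both B2 libraries, WT3 and S34F3, sit low.

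The contrast of B2 with B1 in the same model, chosen after seeing the data, called 15 members lower and 2 higher in B2 (edgeR, Benjamini-Hochberg), where 11.8% of all features were called lower and 14.4% higher. The members' median log2 difference (B2 minus B1) was -0.62, beside -0.0017 over all features, and 66 of 78 were negative, against 50.1% of all features. ATP5F1D, the delta subunit, had the largest, from 163 and 81.4 CPM in WT1 and WT2 to 28.0 CPM in WT3, and from 182 and 147 CPM in S34F1 and S34F2 to 43.5 CPM in S34F3 (log2 difference -2.03, edgeR adjusted p = 0.000789). The 2 called higher in B2 were the long NDUFS1 (1.69) and SDHB (0.89). ATP5ME had a log2 difference of -0.05 between B2 and B1.

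The members were read as 722 isoforms with 285816 reads in all, from 1 to 34 isoforms per gene with a median of 8. Of these, 304 carried an annotated transcript ID. Isoforms without one took 10.5%, 9.44% and 10.4% of member reads in WT1 to WT3 and 8.08%, 11.05% and 10.7% in S34F1 to S34F3 (exact permutation test, p = 1.0). In the other Ensembl genes that share was 34.4% to 38.7% per library. The most-read isoform of a member held, in the median, 68.8%, 68.6% and 72.5% of its reads in wild type and 70.4%, 69.4% and 70.6% in S34F (exact permutation test, p = 1.0). Neither share separated the genotypes.

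Of the members with most reads outside their first isoform, UQCR10, COX6A1 and UQCRQ divided their reads mainly between ends of one splice form. UQCR10, a small complex III subunit, placed 43.2% of reads on one form and 39.9% on a second with the same exons and a 3′ end nearer the start, and the first took 40.0% to 48.8% over the libraries. COX6A1 placed 49.7% and 48.9% on 2 forms that differ in their first base, the first taking 48.5% to 54.8%. UQCRQ placed 40.0% and 38.4% on 2 forms that start 14 bases apart, the first taking 37.7% to 41.4%. For COX6A1 that share was above the 3 wild-type values in each S34F library. ATP5MG gave 46.5% to its first isoform, UQCRC1 68.5% and ATP5PF 71.4%. The second isoform of UQCRC1 held 5.16% and had the same ends as the first, and that of ATP5PF held 6.59%. The genotypes overlapped in this share for UQCR10, UQCRQ, ATP5MG and ATP5PF. For UQCRC1 the S34F libraries gave 72.2%, 69.2% and 70.0% against 67.1%, 64.7% and 68.9% in wild type, with no isoform usage call.

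Of 315 member isoforms tested, 3 were called, all lower in S34F (edgeR, adjusted p), where 4.26% of 13961 isoforms were called and 2.91% were called lower. Besides both ATP5ME forms this was the ATP5MD isoform ENST00000369815.1, which stood at 39.4, 80.8 and 40.9 CPM in wild type and 12.7, 13.9 and 14.8 CPM in S34F. The S34F values were all below the wild-type values, and the log2 fold change was -1.89 ± 0.41 (SE; edgeR adjusted p = 0.0075). The call was lost without WT2, without the B1/B2 term and on B1 libraries only (adjusted p = 0.102, 0.173 and 0.0764). An isoform of UQCRH with 3 exons and no annotated ID stood at 35.6, 40.0 and 14.7 CPM and at 87.6, 58.03 and 49.98 CPM (log2 change 1.20 ± 0.35 SE, adjusted p = 0.051 by edgeR). Its ranges did not overlap, and it did not pass. With RLE scaling the UQCRH isoform was called higher (adjusted p = 0.0451), as it was without S34F2 (0.00238).

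Isoform usage, tested per gene with edgeR's diffSpliceDGE, was called for 0 of 63 members, against 0.634% of 2207 genes, and 7 members had an unadjusted Simes p below 0.05 where 6.16% of all genes did. The F test of the same tool called 0 and placed 7 below 0.05. ATP5IF1, the inhibitor of ATP synthase hydrolysis, had the smallest Simes p (adjusted p = 0.191), followed by COX7A2 (adjusted p = 0.247).

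Single splicing choices were then compared as the share of informative reads that carry one form. Of 575 choices tested in 74 members, 5 were called, all of them a rare or minor form that was less used in S34F (edgeR adjusted p within each type of choice). Over all genes 1% of 22750 choices were called, and 0.721% were called with the first-named form less used in S34F. By type the members had 3 of 217 cassette exons called (0.963% over all genes), 2 of 106 alternative 5′ splice sites (1.32%), 0 of 96 alternative 3′ splice sites (1.42%), 0 of 67 retained introns (0.56%), 0 of 57 3′ end choices (0.816%) and 0 of 32 first exon choices (0.468%). At an unadjusted p below 0.05 stood 46 member choices, against 9.13% of all, and by type 22, 8, 7, 4, 2 and 3. limma on log odds called none of the 575 members' choices, or of the 22750, and placed 39 member choices below an unadjusted 0.05.

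**Figure D4:**
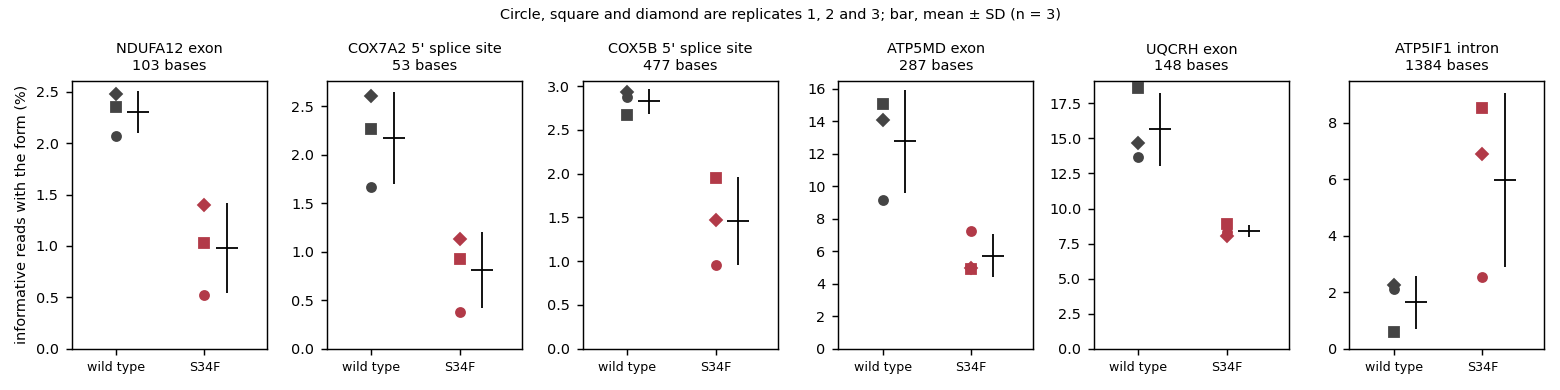
Share of informative reads with the named form (vertical axis, percent from 0) in each library, for the 6 member choices with the smallest p. Circles, squares and diamonds are replicates 1, 2 and 3, and bars are mean ± SD (n = 3). In the first 5 the S34F libraries lie below wild type, and in ATP5IF1 they lie above.

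The 3 forms shown next carry called choices outside the 5′ UTR, so that the inserted bases can be read. Sequences were taken from GENCODE 29 transcripts that hold the inserted bases, and capitals mark the inserted exon or extension. For UQCRH the lengths of both neighbouring introns matched, and for NDUFA12 and COX7A2 that of the following intron. In its transcript the NDUFA12 exon forms the end of a longer first exon. Lower-case letters are the bases before or after it.
NDUFA12: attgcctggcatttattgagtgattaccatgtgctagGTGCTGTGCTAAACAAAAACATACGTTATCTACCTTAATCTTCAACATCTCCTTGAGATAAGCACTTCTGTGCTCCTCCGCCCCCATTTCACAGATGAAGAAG
COX7A2: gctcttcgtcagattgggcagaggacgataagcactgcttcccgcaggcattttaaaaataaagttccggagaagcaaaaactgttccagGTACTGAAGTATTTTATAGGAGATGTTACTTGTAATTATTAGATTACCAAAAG
UQCRH: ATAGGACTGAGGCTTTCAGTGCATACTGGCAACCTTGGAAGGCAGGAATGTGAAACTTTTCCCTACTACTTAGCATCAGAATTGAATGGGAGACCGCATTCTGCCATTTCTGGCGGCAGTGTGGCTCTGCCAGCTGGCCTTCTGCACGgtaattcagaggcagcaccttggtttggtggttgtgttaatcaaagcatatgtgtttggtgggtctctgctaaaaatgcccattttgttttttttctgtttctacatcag

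NDUFA12 encodes an accessory subunit of complex I. Its cassette exon of 103 bases (chromosome 12, 95391084 to 95391186, hg19, minus strand) was read in 2.08%, 2.35% and 2.48% of informative reads in WT1 to WT3 and in 0.526%, 1.03% and 1.40% in S34F1 to S34F3. These shares rest on 54, 71 and 31 reads with the exon in wild type and 10, 7 and 14 in S34F, and the genotypes did not overlap. The log2 odds fell by 1.40 ± 0.34 (SE; edgeR adjusted p = 0.0075). Reading on from the usual start codon, the exon printed above brings a TAA stop that begins at its base 36. The fit paired by replicate number gave an adjusted p of 0.062.

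COX7A2 encodes a small subunit of complex IV, whose counterpart in muscle is COX7A1. Its exon was extended by 53 bases through a later 5′ splice site (chromosome 6, 75950839 to 75950891, hg19, minus strand) in 1.66%, 2.26% and 2.60% of informative reads in wild type and 0.378%, 0.929% and 1.13% in S34F. The S34F shares rest on 4, 3 and 8 reads, and all lay below wild type (log2 odds -1.60 ± 0.41 SE, edgeR adjusted p = 0.0095). The extension holds the stop codon TAG of an annotated nonsense-mediated decay transcript, beginning at base 40 of the extension. With pairing by replicate number the adjusted p was 0.110.

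COX5B encodes a subunit that binds zinc on the matrix side of complex IV. Its first intron was left from a 5′ splice site 477 bases past the usual one (chromosome 2, 98262653 to 98263129, hg19, plus strand) in 2.87%, 2.67% and 2.93% of informative reads in wild type and 0.953%, 1.95% and 1.47% in S34F. The ranges were apart, with 52, 44 and 31 reads in wild type and 17, 8 and 12 in S34F (log2 odds -1.19 ± 0.30 SE, edgeR adjusted p = 0.0098; 0.181 with pairing by replicate number). Over the libraries together most of these reads, 27, 33 and 22 in wild type and 13, 6 and 6 in S34F, held a separate exon of 150 bases, whose own share was 1.51%, 2.01% and 2.10% in wild type and 0.731%, 1.47% and 0.739% in S34F (edgeR adjusted p = 0.175).

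UQCRH showed the commonest of the called forms that lie in coding sequence. Its exon of 148 bases (chromosome 1, 46775569 to 46775716, hg19, plus strand) was in 13.7%, 18.6% and 14.7% of informative reads in wild type and 8.33%, 8.89% and 8.05% in S34F. The means were 15.7% ± 2.60 and 8.42% ± 0.427 (SD, n = 3), the S34F libraries lay close together, and no library overlapped. The log2 odds fell by 1.01 ± 0.28 (SE; edgeR adjusted p = 0.042; 0.168 with pairing by replicate number). The exon belongs to an annotated nonsense-mediated decay transcript, in which the frame first meets a TGA stop at base 78 of the next exon. The 3′ splice site of that next exon, at the end of the printed intron, has C before its AG. The 3′ splice site of the inserted UQCRH exon itself was not read. For NDUFA12 the site that was read, with T before its AG, is that of the inserted exon, so the sites are not counterparts.

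ATP5MD encodes a small membrane subunit of the ATP synthase. An exon of 287 bases in its 5′ UTR (chromosome 10, 105155503 to 105155789, hg19, minus strand) was in 9.13%, 15.04% and 14.1% of informative reads in wild type and 7.26%, 4.93% and 4.96% in S34F. All S34F shares were below all wild-type shares (log2 odds -1.30 ± 0.35 SE, edgeR adjusted p = 0.026; 0.077 with pairing by replicate number). The called isoform ENST00000369815.1 holds this exon, so both calls rest on largely the same reads. The junction with the intron is shown because it is the site that the exon needs, with the first bases of the exon in capitals.
ATP5MD: tttcttctgtatgtccatagCTGTTTGTTC

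Each of the 5 calls was absent from the fits without the B1/B2 term, paired by replicate number, or on B1 libraries alone, and from limma. Without WT2, WT3 or S34F3 no member choice was called, and without S34F1 the ATP5MD exon alone of the 5 was. The sign of each of the 5 was the same in every fit.

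Rare inserted exons mostly had negative log2 odds, called or not. Among member cassette exons included in under 10% of informative reads, 41 of 56 (73.2%) had negative log2 odds, with a median of -0.47. Over all genes 67.5% of 1257 such exons were negative, with a median of -0.30. Isoforms were defined once over all libraries, and the wild-type libraries hold more of the reads; the part of this in these signs was not tested. ATP5MPL, a small synthase subunit, had an exon of 155 bases in 2.50%, 2.47% and 2.88% of reads in wild type and 0.877%, 0.662% and 0.504% in S34F (edgeR adjusted p = 0.112). Its isoform ENST00000555030.1-1, which holds the exon, had 15, 13 and 15 reads in wild type and 2, 1 and 2 in S34F. NDUFS4, an accessory subunit of the matrix arm of complex I, had an exon of 172 bases in 7.24%, 6.42% and 7.14% and in 1.80%, 3.16% and 1.69% (edgeR adjusted p = 0.114). Neither passed, though the ranges were apart in both.

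ATP5IF1 went the other way. The intron before its last exon, of 1384 bases, was kept in 2.10%, 0.577% and 2.25% of informative reads in wild type and 2.55%, 8.53% and 6.88% in S34F (log2 odds 1.77 ± 0.48 SE, edgeR adjusted p = 0.090). Leaving out WT1 or S34F1 gave adjusted p-values of 0.019 and 0.029. S34F1 lay just above the wild-type range and the isolate 2 libraries of S34F well above it. A start of the last exon 76 bases earlier was used in 1.58%, 3.36% and 3.03% of reads in wild type and 4.97%, 7.09% and 4.96% in S34F (log2 odds 1.04 ± 0.36 SE, edgeR adjusted p = 0.171). Both choices concern the same intron end, and neither passed. Both sites are shown with the first bases of the exon in capitals, and both have T before the AG.
ATP5IF1 usual start: gagccaccgtgtccttgtagAGCACAGAGT
ATP5IF1 earlier start: aactcctattccttgcttagACATTACAGG

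The 3′ ends of members were measured in 57 genes, and none was called. NDUFS4 used its distal end in 98.7%, 98.7% and 99.6% of reads in wild type and 99.1%, 95.8% and 96.2% in S34F (edgeR adjusted p = 0.485). UQCRB and NDUFS7 came next by p, with adjusted p-values of 0.579 and 0.678 (edgeR).

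Other genes of the pathway were measured beside the members. Of 46 assembly factors tested, 1 was called higher and 2 lower (3.24% called over all features). COX16, needed for complex IV assembly, stood at 13.7, 10.2 and 14.9 CPM in wild type and 36.1, 40.4 and 30.2 CPM in S34F (log2 fold change 1.41 ± 0.35 SE, edgeR adjusted p = 0.038). COX19, a copper-handling factor, stood at 64.9, 67.9 and 43.4 CPM and at 23, 19.1 and 7.56 CPM (log2 change -1.91 ± 0.35 SE, adjusted p = 0.0057 by edgeR). PET100, a complex IV chaperone, stood at 16.1, 30.5 and 10.1 CPM and at 1.64, 2.12 and 2.83 CPM (edgeR adjusted p = 0.022). For these 3 factors the ranges did not overlap. With pairing by replicate number the COX16 call was not made (adjusted p = 0.060), nor was it without WT1, WT2, WT3 or S34F3 (0.13 to 0.266). The COX19 call was lost without WT3 or S34F3 (0.124 and 0.117), and the PET100 call without WT2 or WT3 (0.19 and 0.0634). Without the B1/B2 term, where 2 of all features were called, none of COX16, COX19 and PET100 was (0.29, 0.3 and 0.189). On B1 libraries only, COX16 and COX19 were not called (0.158 and 0.117), while PET100 was (0.0416). limma-voom did not call PET100 (0.11). Pairing by replicate number kept the COX19 and PET100 calls (0.0138 and 0.0318). At 1.64 to 2.83 CPM, PET100 in S34F rests on very few reads.

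None of the 11 citrate cycle genes, 7 regulators of mitochondrial gene expression, 3 electron carriers or 2 further subunits tested (NDUFAB1 and COX4I1) was called, with an unadjusted p below 0.05 for 1, 1, 1 and 0 of them. Of the mitochondrially encoded subunits, MT-CO2 and MT-ATP6 were in the table. MT-CO2 stood at 19530, 18810 and 12590 CPM in wild type and 44700, 16010 and 13140 CPM in S34F, with S34F1 highest as for many members (log2 fold change 0.46 ± 0.45 SE, edgeR adjusted p = 0.662). MT-ATP6 had a log2 fold change of 0.37 ± 0.34 (SE).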

How the data were processed

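Polyadenylated RNA of 6 HBEC3kt libraries was measured as full-length cDNA on a nanopore instrument. The deposited table gives read counts per isoform, and a deposited gene model file gives exon positions, on build hg19 according to the submitters' processing notes. The aligner, filters and strand setting of the authors are not stated in these sources. Counts were summed per gene and scaled by TMM. A long read is 1 cDNA, so CPM is not divided by length. Gene symbols came from GENCODE 29, which matched 10859 of 11034 Ensembl IDs.

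Groups were tested with edgeR 4.0.16 (quasi-likelihood, filterByExpr, B1/B2 term, Benjamini-Hochberg over all features, threshold 0.05), isoform usage with diffSpliceDGE. Splicing choices were taken from isoforms of a gene, with 10 informative reads in every library, and 3′ ends within 100 bases merged. Alternatives used DESeq2 1.42.0, limma 3.58.1, other filters, equal depth and libraries left out. The tests were run on simulated data. For splicing choices a moderate change in noisy counts was almost never recovered, and a larger change in low-noise counts, simulated after that, mostly was, with the method unchanged. At gene level 2-fold changes were recovered in a minority. Few calls therefore do not show that little changed.

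Correlations of deviations between libraries with the same replicate number were positive (0.488, 0.161 and 0.848). This comes from the data, and the crossed B1 pairs were positive as well (0.544 for WT2 with S34F1, 0.326 for WT1 with S34F2). Only the replicate 3 pair, which is the B2 pair, stood above both of these. Pairing by number within B1 is therefore not borne out, and the paired values are given beside the calls they change.

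Members and lists were chosen with earlier results of these data known. Named genes were every called member, those with the smallest p, per complex the most-read and the 2 most changed, those with most reads outside the first isoform, and a fixed set of core subunits. Some symbols that fit the names are not analysed here, and 1 sequence is not reported here.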

Additional observations from a re-analysis of the deposited data

How the results depend on the processing

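Members called at gene level numbered 1 in the main analysis and with RLE scaling, DESeq2, limma-voom, no filter or equal depth. The count was 0 with at least 10 reads in every library, without the B1/B2 term, with the replicate block, on B1 libraries only and with isolate 2 libraries summed (4, 1, 4, 3 and 1 members at an unadjusted p below 0.05). Over all features those fits called 72, 2, 187, 79 and 0, against 228 in the main analysis. Leaving out 1 library gave 0 to 7: without S34F1 NDUFA7 and ATP5ME were lower, and without S34F2 ATP5ME was lower and ATP5MC1, ATP5MC2, COX6B1, NDUFA2, NDUFB11 and NDUFB6 were higher. Calls over all features rose in the same fits, to 519 without S34F1 and 655 without S34F2. Without WT1, WT2, WT3 or S34F3 they numbered 67 to 110. Isoforms called numbered 3, 4 with RLE scaling (a UQCRH isoform, higher), 0 without the B1/B2 term and 0 on B1 libraries only, and 0 to 10 with 1 library left out. Over all isoforms the main analysis called 595, the fit without the B1/B2 term 3 and B1 libraries only 184. With 1 library left out 203 to 1340 were called, the most without S34F2, as for the members. Splicing choices called numbered 5, 0 with limma, 0 without the B1/B2 term, 0 with the replicate block and 0 on B1 libraries only, and 0 to 4 with 1 library left out. Over all genes the main analysis called 228 choices, and the same alternatives called 0, 62, 138 and 70, in that order. With 1 library left out 71 to 188 were called. The replicate block changed no member isoform or isoform usage call. Alternatives for the called assembly factors and LAMB3 were added after seeing the data, and the block ended COX16 and LAMB3. The contrast of B2 with B1 cannot be fitted with the block. The members' median log2 fold change of 0.126 ranged from -0.167 to 0.339 with 1 library left out and was -0.0652 with no filter. Differences between genotypes with 1 library left out ranged, in percentage points, from -0.911 to 0.311 for the members' share of reads (-0.261 with all), from -0.746 to 0.741 for reads on isoforms without an annotated ID (-0.185) and from -0.506 to 1.47 for the most-read isoform (0.194). The cause was not tested. Depth limits the rare forms: the called ones rest on as few as 3 reads in an S34F library, and the ATP5MPL form, not called, on as few as 1.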
